A study of Mus musculus with 6 samples.

Results

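Hox cluster miRNAs are microRNAs whose genes lie among the Hox genes, and their levels were examined in the epididymal fat pad, a white adipose tissue (WAT), of mice that overexpress angiotensinogen in fat. They were chosen by name, as every listed arm of miR-10a, miR-10b, miR-196a, miR-196b and miR-615, and selected on a level above the floor of the table in at least 3 of 6 libraries. Of the 10 such rows among the 1983 rows of the table, 8 met this rule, and these 8 were above the floor in all 6 libraries. The other 2, miR-196a-3p and miR-196b-3p, were at the floor in every library, where the floor stood for 6.39 to 10.6 reads.

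The libraries were small RNA libraries from male C57BL6/J mice, 3 from wild type (Wt) mice and 3 from angiotensinogen transgenic (Agt Tg) mice. Agt Tg mice carry an Agt transgene under the aP2 promoter, which drives expression in adipose tissue and is also active in macrophages. Angiotensinogen is the precursor protein of the renin-angiotensin system, and the transgene itself cannot be checked in libraries of mature miRNAs. The labels give all 6 mice a chow diet, the study's methods give a low fat diet, and the age of the mice was not stated in the labels or methods. The libraries are numbered in the labels without saying how the mice were kept or paired, so p-values measure the spread between these libraries.

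Hox genes encode transcription factors that set the identity of body regions along the head to tail axis, and adult fat depots keep depot-specific Hox expression. The miRNAs that lie between them are transcribed from the same clusters and repress Hox transcripts among their targets, mainly through the seed, bases 2 to 8 from the 5′ end of the mature strand. miR-10 genes lie next to the Hox4 genes, miR-196 genes next to the Hox9 and Hox10 genes, and miR-615 lies within Hoxc5. miR-196a has a described role in white fat, where it represses Hoxc8 during the formation of brown-like adipocytes.

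The mature mouse sequences of the 8 rows are shown because the miRNAs fall into families by seed. They also show the few bases by which reads of a family can be told apart. The sequences were taken from RefSeq (GRCm38.p6), run 5′ to 3′, and have the seed in capitals.
miR-10a-5p: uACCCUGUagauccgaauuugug
miR-10b-5p: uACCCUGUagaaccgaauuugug
miR-10a-3p: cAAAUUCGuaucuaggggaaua
miR-10b-3p: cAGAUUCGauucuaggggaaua
miR-196a-5p: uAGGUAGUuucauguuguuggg
miR-196b-5p: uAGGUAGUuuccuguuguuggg
miR-615-3p: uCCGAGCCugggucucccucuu
miR-615-5p: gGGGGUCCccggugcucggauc
Counting from 1 at the 5′ end, miR-10a-5p and miR-10b-5p have the same seed and differ by 1 substitution, U12A, with the base of miR-10a first. miR-196a-5p and miR-196b-5p also share their seed and differ by 1 substitution, A12C. The 3p strands of miR-10a and miR-10b differ by 3 substitutions, A3G, U9A and A10U, the first of which falls in the seed. The number of mismatches allowed in mapping was not given in the sources used here, so that some reads of each pair may have been assigned to the other member. The rows carry human miRNA names and were matched to mouse sequences by name. Whether the sequence counted in each row equals the mouse strand shown was not checked. Where the sequences differ, the level of the row and the ratios that use it could be affected.

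The genes lie in all 4 Hox clusters (GRCm38, GENCODE M21). Mir10a is at chr11:96317165-96317274 on the plus strand, in the Hoxb cluster, 992 bases from Hoxb4 and outside any Hox gene. Mir10b is at chr2:74726070-74726137 on the plus strand, intronic in annotated transcripts of Hoxd3 and Hoxd4. miR-196a has 2 genes with the same mature 5p strand, so its reads cannot be divided between them. Mir196a-1 is at chr11:96265164-96265265 on the plus strand, 6191 bases from Hoxb9, and Mir196a-2 is at chr15:102973350-102973434 on the plus strand, between Hoxc10 and Hoxc9 and within an intron of a long Hoxc5 transcript. Mir196b, at chr6:52230081-52230165 on the minus strand, is 1031 bases from Hoxa10 and overlaps 2 annotated exons of Hoxa9. Mir615 is at chr15:103014910-103015001 on the plus strand, within an intron of Hoxc5.

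The match to the seed, spelled as DNA on the transcript strand, was counted in the longest annotated 3′ untranslated region of each of 21020 mouse genes. The match to the miR-10 seed, ACAGGGT, was found in 12.5% of these genes. It was found in 4 of 39 Hox genes, Hoxb3 and Hoxd1 among them, no larger a share than among all genes. The match to the miR-196 seed, ACTACCT, was found in 6.10% of all genes and in 9 of 39 Hox genes. Among Hox genes, Hoxa7 held 4 matches and Hoxc8 held 2, and Hoxa5, Hoxa9, Hoxb6 and Hoxb7 were among those that held 1 each. Hoxb8, the best known miR-196 target, held none, because its site differs from the perfect complement of miR-196a at 1 position within the seed match. The site is shown since it pairs along nearly the whole miRNA. It lies at chr11:96284888-96284909 on the plus strand (GRCm38), and the capitals mark the bases opposite the seed.
Hoxb8 site: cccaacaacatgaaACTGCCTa
Of its 22 positions 21 were complementary to miR-196a-5p and 20 to miR-196b-5p, while the next best window of the 845-base region had 11 complementary to miR-196a-5p. The single difference from the complement of miR-196a-5p was A18G, with the complement's base first and positions counted from the 5′ end of the site, which places a G opposite a U of the seed. These are matches of letters, and no target RNA was measured here.

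The 6 libraries held 6387766 to 10562634 reads, of which 51.8% to 57.2% fell on listed miRNAs. Wt replicate 2 stood apart from the other libraries. Its summed level over an epithelial marker list, of which 5 of 7 members were above the floor in at least 3 libraries, was 15.6 on the log2 scale, against 7.69 to 8.60 in the other 5, with miR-429 at the floor throughout. Its summed level over an epididymis and testis list, with 2 of 5 members above the floor, was 16.4 against 9.81 to 10.5, with miR-34b-5p and miR-34c-3p at the floor in every library. An erythroid list was lowest in the same library, at 15.6 against 16.5 to 17.7. The adipocyte list lay between 16.0 and 16.6 in all 6 libraries, although miR-193b-3p, a miRNA of brown and white adipocytes, was at the floor in every library. The other strand of its hairpin, miR-193b-5p, was at the floor in Wt and had a mean level of 3.74 in Agt Tg mice. As the rows carry human names, a row at the floor need not mean that the mouse miRNA was absent, which was not tested. The endothelial list lay between 16.1 and 16.9 and the liver miRNA miR-122-5p between 6.23 and 7.18. Of the 4 muscle list members, 1 was above the floor in at least 3 libraries, and miR-133b and miR-206 were at the floor throughout. The muscle sum was 10.7 in Wt replicate 2 and 9.01 to 9.41 in the others. The haematopoietic list was 15.3 to 15.4 in Wt and 14.8 to 15.2 in Agt Tg mice, so that its groups did not overlap. The epithelial groups did not overlap either, at 8.09 to 15.6 in Wt and 7.69 to 8.05 in Agt Tg mice. For comparison, 17.6% of the 329 tested miRNAs had groups that did not overlap. The part that the marker list differences play in the miRNA levels was not tested. In bulk tissue, fewer cells of a type and less RNA per cell cannot be told apart. Results that moved by over 1.5 times without Wt replicate 2 are given with and without it.

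The 8 miRNAs spanned most of the range of the table, and the guide strands of miR-10 were at its top. miR-10b-5p had the highest mean level among the 329 miRNAs that entered the tests, those above the floor in 3 or more libraries, and miR-10a-5p ranked 3rd. miR-615-3p ranked 97th, miR-10a-3p 172nd, miR-10b-3p 186th, miR-196a-5p 217th, miR-196b-5p 230th and miR-615-5p 256th. These ranks compare reads per miRNA among mature strands of similar length. How evenly the libraries captured strands of different sequence was not measured, which limits the ranks and the ratios between strands. As levels took part in the choice of the rows, the order is a description and was not tested.

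**Figure D1:**
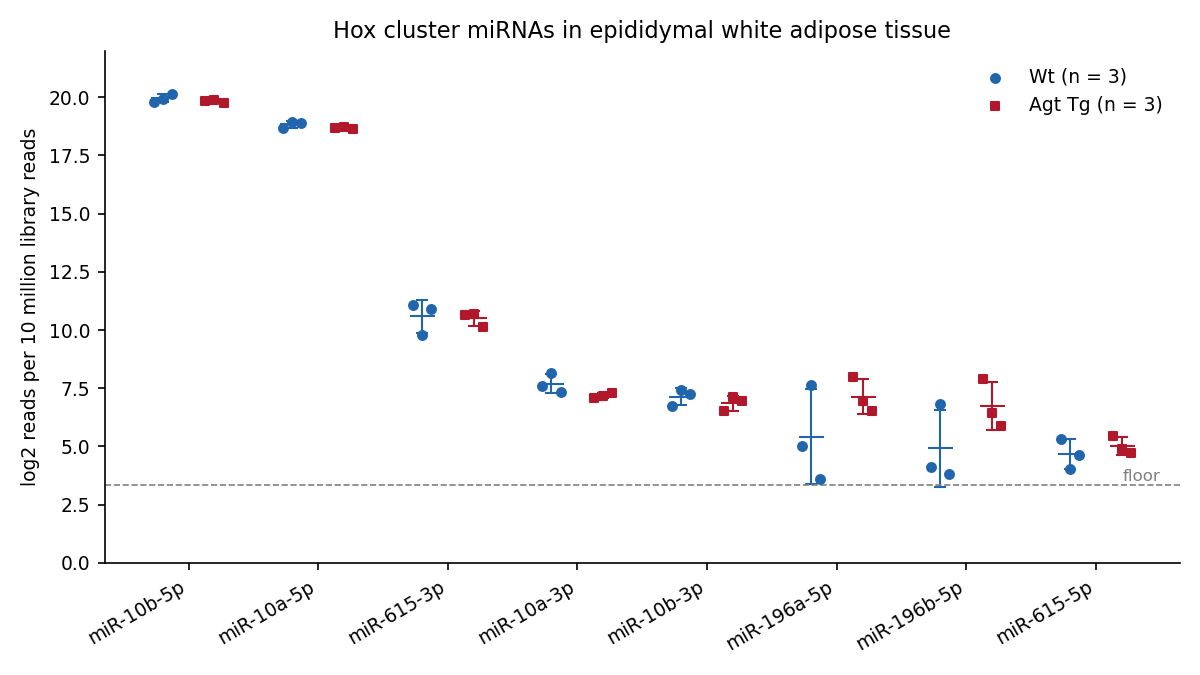
Levels of the 8 Hox cluster miRNAs (x axis) as log2 reads per 10000000 library reads (y axis), with a point for each library, Wt in blue and Agt Tg in red, and bars for the mean ± SD (n = 3 each). The groups lie close together for miR-10a-5p and miR-10b-5p, and the Wt points of miR-196a-5p and miR-196b-5p reach from near the floor, the dashed line at 3.32, to the level of the Agt Tg points.

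Between neighbours in this order, miR-10b-5p lay above miR-10a-5p in 6 of 6 libraries, by 1.14 ± 0.086 on the log2 scale (SD, n = 6). miR-10a-5p lay above miR-615-3p by 8.21 ± 0.55, and miR-615-3p above miR-10a-3p by 3.10 ± 0.78, each in 6 of 6 libraries. miR-10a-3p lay above miR-10b-3p in 6 of 6 libraries, by 0.45 ± 0.32. The lower part of the order was not fixed. miR-10b-3p lay above miR-196a-5p in 4 of 6 libraries, miR-196a-5p above miR-196b-5p in 5 of 6, and miR-196b-5p above miR-615-5p in 4 of 6, and the mean difference was smaller than its SD for the first and last of these pairs.

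miR-10b-5p and miR-10a-5p, which share a seed, made up nearly all of the reads on the 8 rows. The share of all reads on listed miRNAs that fell on the 8 rows was 24.6%, 27.3% and 28.8% in Wt and 25.5%, 27.2% and 23.7% in Agt Tg mice, or 26.9% ± 2.12 and 25.5% ± 1.79 (SD, n = 3 each). The groups overlapped, and the difference of -1.40 percentage points was within the spread between libraries (exact permutation test, two-sided, p = 0.4, where the smallest p that 3 against 3 libraries can give is 0.1). It was -0.46 percentage points without Wt replicate 3, -0.50 without Agt Tg replicate 3 and -2.55 without Wt replicate 1. miR-10b-5p alone held 16.2% to 20.1% of the listed reads and miR-10a-5p 7.42% to 9.14%, while the other 6 rows together held 0.029% to 0.047%.

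The level of miR-10b-5p, on the log2 scale of reads per 10000000, was 19.79, 19.93 and 20.14 in Wt and 19.85, 19.90 and 19.76 in Agt Tg mice. The level of miR-10a-5p was 18.68, 18.94 and 18.90 in Wt and 18.67, 18.70 and 18.63 in Agt Tg mice. The groups overlapped for both strands, and the highest library was 1.30 times the lowest for miR-10b-5p and 1.24 times for miR-10a-5p. Among the 329 tested miRNAs, ordered from the largest SD over the 6 libraries, miR-10b-5p was 323rd and miR-10a-5p 324th, so both were among the least variable rows. The log2 fold change of Agt Tg over Wt was -0.12 for miR-10b-5p (limma SE 0.15, 95% confidence interval -0.46 to 0.23, adjusted p = 0.734). It was -0.17 for miR-10a-5p (SE 0.14, interval -0.51 to 0.16, adjusted p = 0.626). Both intervals lay well inside the 2-fold threshold in either direction. With TMM scaling, which moved the median log2 fold change of all tested miRNAs from -0.19 to -0.06, the value of miR-10b-5p turned to 0.01, and that of miR-10a-5p was -0.05. Leaving out each library in turn gave -0.20 to -0.025 for miR-10b-5p.

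The passenger strands of both miR-10 hairpins were detected at low levels. miR-10a-3p was 7.58, 8.17 and 7.36 in Wt and 7.09, 7.19 and 7.30 in Agt Tg mice, from 93 to 225 reads. Every Agt Tg library was below every Wt library, by as little as 0.05 between the nearest libraries, and this was the only one of the 8 rows whose groups did not overlap. Among all 329 tested miRNAs the groups did not overlap for 17.6%. The log2 fold change of miR-10a-3p was -0.51 (SE 0.30, interval -1.22 to 0.20, limma adjusted p = 0.553), and -0.28 without Wt replicate 2. miR-10b-3p ranged from 6.74 to 7.44 in Wt and from 6.50 to 7.14 in Agt Tg mice, with overlapping groups and a log2 fold change of -0.28 (SE 0.32, interval -1.03 to 0.48, adjusted p = 0.710). Its log2 fold change was -0.13 without Wt replicate 2, -0.097 without Agt Tg replicate 1 and -0.48 without Wt replicate 1.

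The arm ratio, the guide over the passenger strand within a library, does not depend on how libraries are scaled. The 5p strand exceeded the 3p strand 2537-fold for miR-10a and 7619-fold for miR-10b, as geometric means over 6 libraries. The reads counted on both hairpins thus came almost wholly from the 5p arm. miR-615 had the opposite preference, with the 3p strand 52.0-fold above the 5p strand and a range of 37.4-fold to 78.7-fold. For miR-196a and miR-196b no 3p strand was above the floor. On the log2 scale, Agt Tg minus Wt, the 5p to 3p ratio differed by 0.33 for miR-10a, 0.16 for miR-10b and 0.45 for miR-615. Groups overlapped for each, with exact permutation p = 0.3, 0.6 and 0.3, and an adjusted p = 0.75 for each over the 5 ratios tested. Without Wt replicate 2 the difference was 0.15 for miR-10a and -0.0014 for miR-10b, without Wt replicate 3 it was 0.54 for miR-10a and 0.26 for miR-615, and without Agt Tg replicate 1 it was -0.023 for miR-10b.

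The ratio of the paralogues also held between libraries for miR-10. miR-10b-5p exceeded miR-10a-5p 2.20-fold, with a range from 1.98-fold to 2.35-fold, and Agt Tg minus Wt was 0.056 on the log2 scale (exact permutation p = 0.6, adjusted p = 0.75). miR-196b-5p minus miR-196a-5p averaged -0.45 ± 0.43 on the log2 scale (SD, n = 6), was above 0 in Wt replicate 3 alone, and differed by 0.083 between genotypes (exact permutation p = 0.9, adjusted p = 0.9). Without Wt replicate 2 these differences were -0.0052 and -0.076.

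miR-196a-5p and miR-196b-5p, the miRNAs that share the AGGUAGU seed, varied most among the 8 rows. The level of miR-196a-5p on the log2 scale was 5.0, 7.64 and 3.61 in Wt mice and 7.99, 6.93 and 6.51 in Agt Tg mice, from 24, 156 and 12 reads and 264, 78 and 96 reads. The level of miR-196b-5p was 4.12, 6.83 and 3.83 in Wt mice and 7.88, 6.45 and 5.88 in Agt Tg mice, from 13, 89 and 14 reads and 244, 56 and 62 reads. Wt replicates 1 and 3 were the lowest libraries for both, Agt Tg replicate 1 was the highest, and Wt replicate 2 lay among the Agt Tg libraries, so that the groups overlapped.

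The spread was larger than counting error. In Wt replicate 3 the 12 reads of miR-196a-5p stood for 1.22 reads per 1000000 (exact 95% Poisson interval 0.63 to 2.13), and in Agt Tg replicate 3, the lowest Agt Tg library, 96 reads stood for 9.09 (7.36 to 11.1). Such intervals cover counting error only. The highest library was 20.8 times the lowest for miR-196a-5p and 16.5 times for miR-196b-5p. The SD over 6 libraries was 1.67 for miR-196a-5p and 1.58 for miR-196b-5p, the 9th and 12th largest of 329, where the median of all tested was 0.44. Without Wt replicate 2 the SDs were 1.72 and 1.68, the largest and the next largest of the 329.

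**Figure D2:**
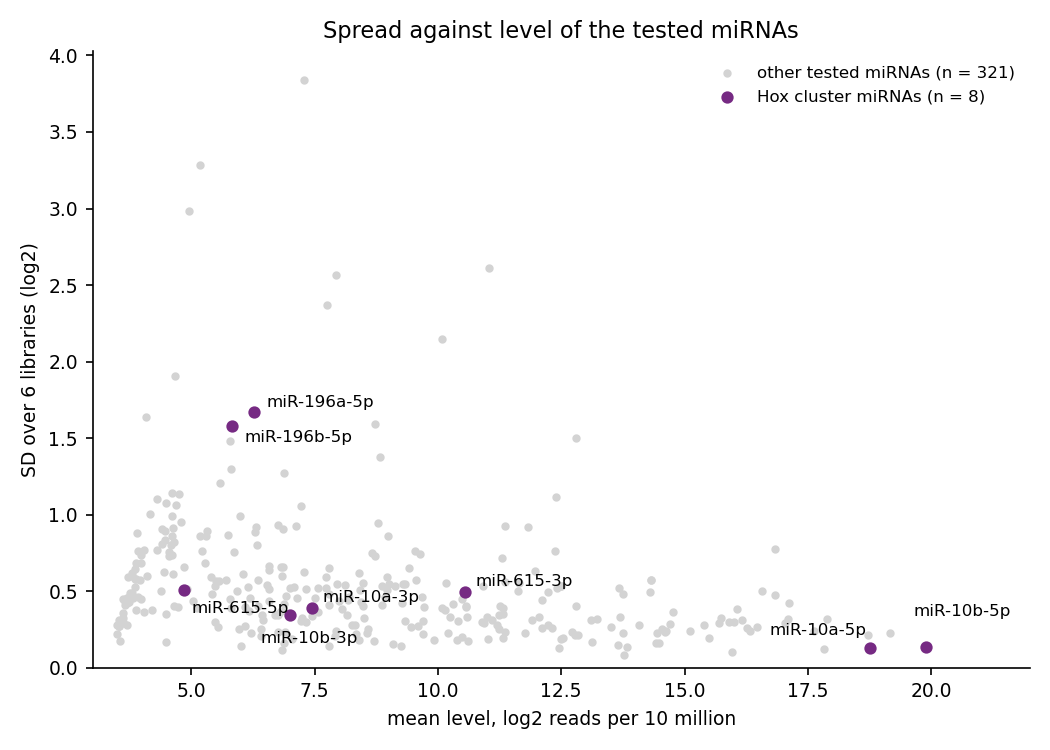
SD over 6 libraries on the log2 scale (y axis) against the mean level as log2 reads per 10000000 (x axis) of the 329 tested miRNAs, with the 8 Hox cluster miRNAs in purple. miR-196a-5p and miR-196b-5p, with SDs of 1.67 and 1.58, stand above most miRNAs of similar level, and miR-10a-5p and miR-10b-5p, with SDs of 0.13, lie at the lower right.

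The mean level of miR-196a-5p was 5.42 ± 2.04 in Wt and 7.14 ± 0.77 in Agt Tg mice (SD, n = 3 each), a log2 fold change of 1.73 (SE 0.98, 95% confidence interval -0.58 to 4.03, limma adjusted p = 0.553). For miR-196b-5p the means were 4.93 ± 1.65 and 6.74 ± 1.03, a log2 fold change of 1.81 (SE 0.88, interval -0.26 to 3.88, adjusted p = 0.531). Neither passed the threshold, an unadjusted p of at most 0.05 with at least a 2-fold change, and the intervals reach from below 0 to more than 8-fold.

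Leaving out Wt replicate 2 changed this result. The log2 fold change of miR-196a-5p was then 2.84 (SE 0.60, interval 1.38 to 4.29) and that of miR-196b-5p 2.76 (SE 0.60, interval 1.29 to 4.23). Both passed the unadjusted threshold, when 12 of 329 miRNAs, or 3.65%, passed it as higher in Agt Tg mice, and neither passed after adjustment (limma adjusted p = 0.299 for each). Without Wt replicate 3 the values were 0.82 and 1.26, and neither passed. The epithelial marker sum of 15.6 in Wt replicate 2 moved with its high miR-196 among the Wt libraries, and its part in the result was not tested. Agt Tg replicate 1, which had the highest miR-196a-5p and miR-196b-5p of the 6, had an epithelial sum of 8.05, within the range of 7.69 to 8.60 of the libraries other than Wt replicate 2.

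**Figure D3:**
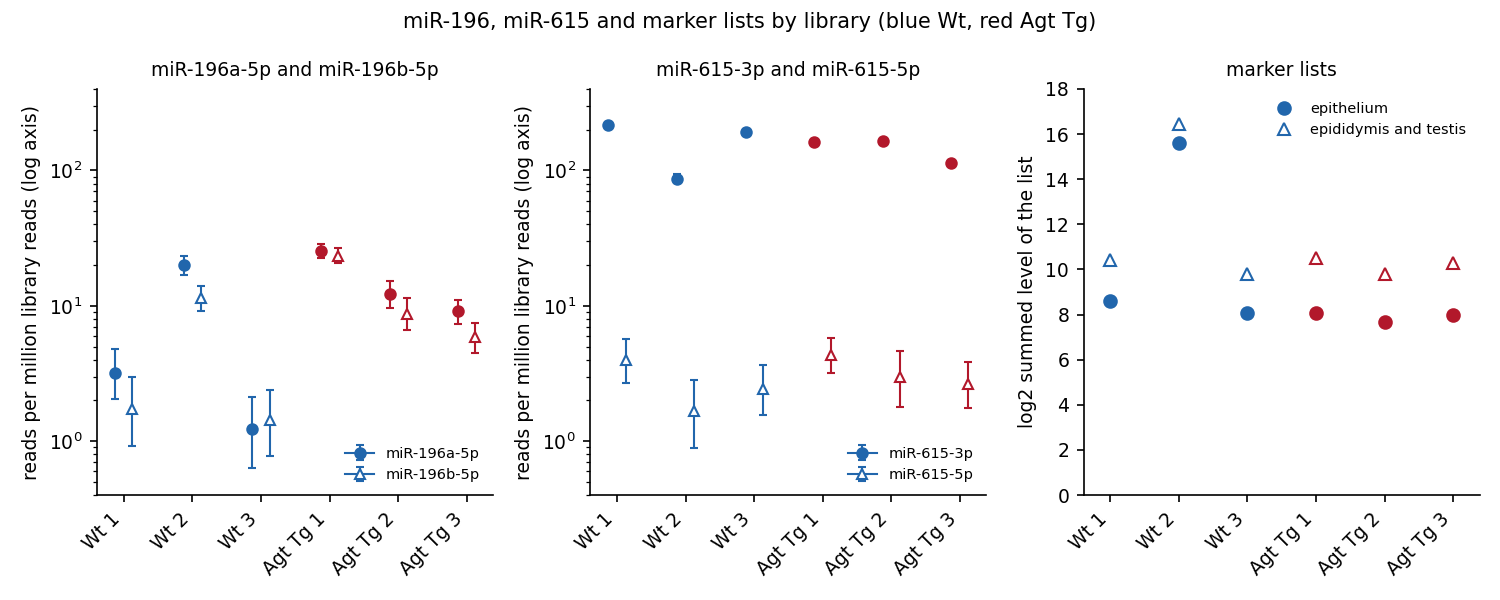
Reads per 1000000 library reads on a log axis for miR-196a-5p and miR-196b-5p (left) and the strands of miR-615 (middle) in each library, with exact 95% Poisson intervals, and the log2 summed level of the epithelial and of the epididymis and testis marker lists (right). Wt libraries are blue and Agt Tg libraries red. Wt replicate 2 is high in both marker lists, at 15.6 and 16.4, and lies among the Agt Tg libraries for miR-196, while Agt Tg replicate 1 is highest for miR-196 with an epithelial sum of 8.05.

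miR-196a-5p and miR-196b-5p varied together although their genes lie on different chromosomes. Over the 6 libraries Pearson's r was 0.967 (exact permutation p = 0.00139, adjusted p = 0.0389 over the 28 pairs of the 8 rows) and Spearman's rho was 1 (exact permutation p = 0.00278, adjusted p = 0.0778). r was 0.949 without the 2 libraries farthest from the median, and 0.953 after the mean of each genotype was subtracted. The pair differs by 1 base, and the part of reads assigned to the wrong member in this relation was not tested. For the miR-10 guide strands r was 0.791 (exact permutation p = 0.0375, adjusted p = 0.35) and rho 0.886 (exact permutation p = 0.0333, adjusted p = 0.311). No pair other than miR-196a-5p and miR-196b-5p had an adjusted p under 0.05.

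miR-615-3p, from the intron of Hoxc5, was at a middle level. It was 11.08, 9.77 and 10.91 in Wt and 10.66, 10.68 and 10.15 in Agt Tg mice, from 683 to 1888 reads. Wt replicate 2 was the lowest library and Wt replicate 1 the highest, so the Agt Tg libraries lay within the Wt range. The log2 fold change was -0.09 (SE 0.38, interval -0.99 to 0.81, limma adjusted p = 0.902), 0.04 with TMM scaling, and -0.50 without Wt replicate 2 (SE 0.23, interval -1.06 to 0.06, adjusted p = 0.368). miR-615-5p was near the floor, at 5.33, 4.05 and 4.61 in Wt and 5.44, 4.89 and 4.73 in Agt Tg mice, from 13 to 45 reads. Its log2 fold change was 0.36 (SE 0.41, interval -0.61 to 1.32, adjusted p = 0.710), and 0.05 without Wt replicate 2, the lowest library for this strand as well. Within Wt, the library with the highest miR-196 thus had the lowest miR-615, while over the 6 libraries r between miR-615-3p and miR-196a-5p was -0.61 (exact permutation p = 0.189, adjusted p = 0.533), with rho -0.66 (exact permutation p = 0.175, adjusted p = 0.544).

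Of the 8 rows, 0 passed the threshold of an unadjusted p of at most 0.05 and at least a 2-fold change, where 16 of 329 tested miRNAs passed it, or 4.86%. At an adjusted p under 0.05, limma called 0 of the 8 and 0.0% of all tested, and at an unadjusted p under 0.05 it called 0 of the 8 and 30 of the 329. limma-voom also had 0 of the 8 and 32 of the 329 at an unadjusted p under 0.05. The fold change was above 0 for 3 of the 8, both miR-196 strands and miR-615-5p, and below 0 for 5, of which miR-10b-5p and miR-615-3p turned above 0 with TMM scaling. The median log2 fold change was -0.10 over the 8 and -0.19 over all tested miRNAs.

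**Figure D4:**
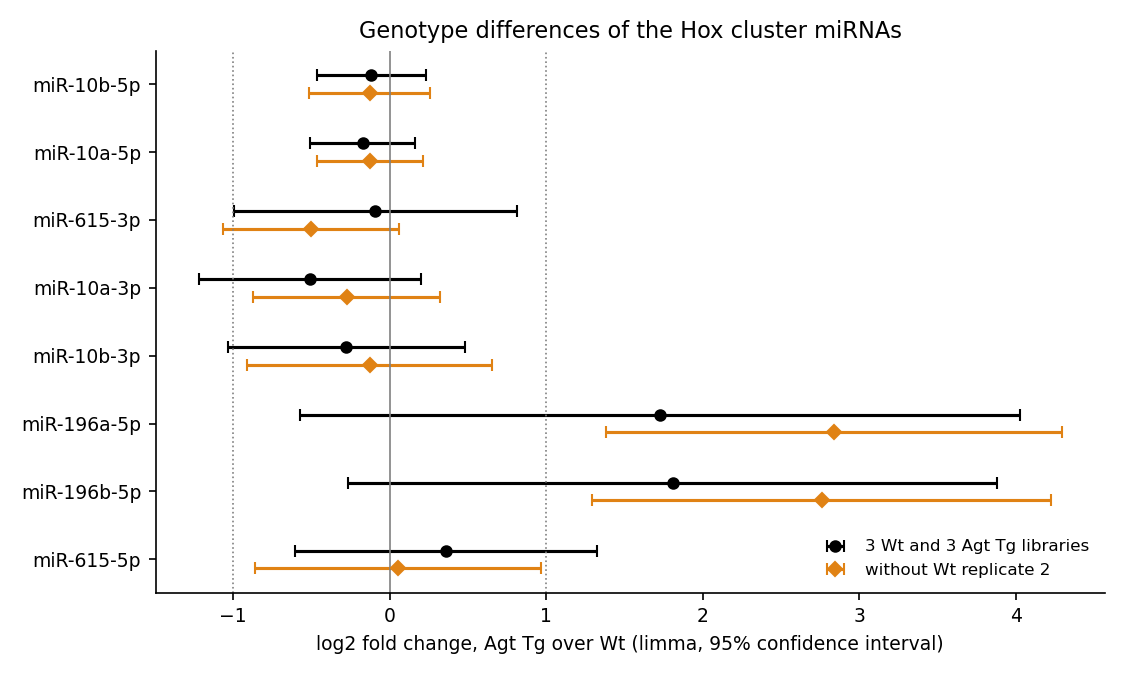
log2 fold change of Agt Tg over Wt (x axis) with its 95% confidence interval from limma for the 8 Hox cluster miRNAs, with all 6 libraries in black and without Wt replicate 2 in orange, and dotted lines at a 2-fold change. The intervals of miR-196a-5p and miR-196b-5p include 0 with all libraries and reach from 1.38 to 4.29 and from 1.29 to 4.23 without Wt replicate 2.

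Related miRNAs outside the Hox clusters had narrower ranges than miR-196. miR-99a-5p, miR-99b-5p and miR-100-5p resemble miR-10 along part of their length but have another seed, and are shown with the longest run of bases they share with miR-10a-5p in capitals.
miR-99a-5p: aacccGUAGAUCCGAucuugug
miR-99b-5p: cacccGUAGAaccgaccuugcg
miR-100-5p: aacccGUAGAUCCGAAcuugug
The run shared with miR-10a-5p was 10, 5 and 11 bases long. The run of miR-99b-5p ends just before the U12A position, where miR-99b-5p has the A of miR-10b-5p. Its short run thus holds for miR-10a-5p only, and runs shared with miR-10b-5p were not counted. Of these 3 miRNAs, 0 passed the threshold, and their log2 fold changes lay between 0.07 and 0.21. let-7 miRNAs and miR-98 hold the letters of the miR-196 seed shifted by 1 base, as in let-7a-5p, where the capitals mark them.
let-7a-5p: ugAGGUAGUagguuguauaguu
The letters were found in 8 of 9 let-7 and miR-98 sequences, all but let-7e-5p. Of the 9 miRNAs 0 passed the threshold, their log2 fold changes lay between -0.17 and 0.19, and their SDs over 6 libraries between 0.25 and 0.50, against 1.67 and 1.58 for the miR-196 strands. Their levels were higher, from let-7f-5p at rank 8 to miR-98-5p at rank 74, against 217 and 230 for the miR-196 strands. The part of level in this contrast was not tested. miR-191-5p, the reference of the study's RT-qPCR, had a log2 fold change of 0.01.

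For each of the 8 rows the most similar rows were found by the root mean square difference of the log2 values over the 6 libraries, after each row's mean was subtracted. miR-196a-5p and miR-196b-5p were each the nearest of 328 rows to the other, at 0.39. The next, miR-1180 and miR-4289, were at 0.92 and 1.06 from miR-196a-5p and at 0.89 and 0.96 from miR-196b-5p. This distance grows with the size of the changes as well as with their shape. A row with the same shape but smaller changes would thus also lie far from miR-196. miR-10a-5p was nearest to miR-10b-5p, at 0.079, before miR-26b-3p and miR-574-5p. From miR-10a-5p, miR-150-5p, miR-29a-3p and miR-10b-5p were at nearly equal distances, 0.075 to 0.079. The nearest to miR-615-3p were miR-484 at 0.15, miR-139-5p and miR-99b-5p, and those to miR-615-5p were miR-486-3p at 0.20, miR-15b-3p and miR-877-3p. miR-29b-1-5p, miR-4258 and miR-4439 were nearest to miR-10a-3p, the latter 2 at the same distance, and let-7b-5p, miR-30c-2-3p and let-7e-5p to miR-10b-3p.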

How the data were processed

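Small RNA libraries of epididymal WAT were analysed from 3 Wt and 3 Agt Tg mice, grouped by the sample labels. Per the study's methods, reads were quality checked with FastQC, mapped with Qseq and profiled with the Gunaratne Next Generation Pipeline; the labels name the build mm10. The authors deposited log2 values, which were found to be log2 of reads per 10000000 library reads with a floor of 10, since 1924 of 1924 values above the floor were whole reads within 0.02. Columns of values without a sample numbered 0.

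The 8 rows, the marker and related lists, and the tests were chosen with earlier results of these data known. The correlations over pairs and the ranks of SD were added after the values were seen. limma 3.58.1 in R 4.3.3 was fitted with a variance trend, two-sided, on the 329 of 1983 rows above the floor in at least 3 libraries, with genotype as the only term and Benjamini-Hochberg adjustment over the 329. It was tested on simulated data. Ratios and shares used exact permutation tests. The rule for named miRNAs took every listed arm of the 5 hairpins, the 3 nearest rows to each, the related and marker lists, and miR-191-5p. Chi-square per degree of freedom between libraries was at least 195 over 15 pairs, so 0 pairs looked like a library deposited again. Sequences came from RefSeq and transcripts from GENCODE M21; the seed matches of some genes are not reported here. Alternatives were other scalings and filters, log2(CPM + 1), limma-voom with TMM factors, a replicate block, and leaving out each library.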

Additional observations from a re-analysis of the deposited data

How the results depend on the processing

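Of the 118 alternative values of the 8 log2 fold changes, 109 kept their direction and their side of the threshold, 2 came to pass it (both miR-196 strands without Wt replicate 2) and 7 changed sign. The sign changes were those of miR-10b-5p, at 0.0111 with TMM scaling and 0.00874 with limma-voom, and of miR-615-3p, at 0.0370 with TMM scaling, 0.0309 with limma-voom, and from -0.50 to 0.16 when each library was left out. The count of the 8 rows past the threshold was 0 under every alternative but for the left-out libraries, where it ranged from 0 to 2. When each library was left out, the genotype difference of the log2 5p to 3p ratio ranged from 0.15 to 0.54 for miR-10a, from -0.0234 to 0.28 for miR-10b and from 0.26 to 0.60 for miR-615, that of the share from -2.55 to -0.46 percentage points, that of miR-10b-5p minus miR-10a-5p from -0.0052 to 0.12, and that of miR-196b-5p minus miR-196a-5p from -0.11 to 0.44; 3 against 2 libraries cannot give a small p. Of the 7 steps in the order of levels, 4 held in every library. The count of all tested miRNAs past the threshold was 16, and 7 on log2(CPM + 1), 9 of 270 with rows above the floor in all libraries, 3 of 209 with a mean CPM of at least 10, a filter that removed miR-196b-5p and miR-615-5p, and 35 without Agt Tg replicate 1. Without a filter the fit took the 373 rows with a value over the floor in any library, since rows at the floor throughout have no variance. The correlations of same-numbered deviations were 0.22, -0.18 and -0.21. They cannot show whether same-numbered mice were paired, which the labels do not say. With the replicate number as a block, 0 of the 8 rows and 17 of 329 passed, and the limma adjusted p was 0.592 for both miR-196 strands. The cause of these changes was not tested. Depth limits miR-196 in Wt mice and miR-615-5p, at 12 to 30 reads in several libraries.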
